A study of Mus musculus with 2 samples.

Results

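The regions described here are all H4K12la peaks on mouse chromosome 15, 3152 of the 46592 peaks called in a control library and 2218 of the 39768 called in a lactate library, or 5370 of 86360 peaks in all. They come from Neuro2a cells, a mouse neuroblastoma line labelled as brain tumor cells, which were grown in DMEM with fetal bovine serum on collagen and given either NaCl (control) or 25 mM lactate. H4K12la, lactylated lysine 12 of histone H4, was mapped by CUT&Tag, in which an antibody brings a transposase to the mark so that nearby DNA is cut and tagged. The stated aim of the study was to learn whether the mark regulates transcription. Each group had 1 library, so no test between them was possible, and every difference below is between these 2 libraries, with 95% intervals that cover counting error only. In pooled cells, fewer cells carrying the mark and less mark per cell cannot be told apart.

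Histone lactylation adds a lactyl group, derived from lactate, to lysines of the histone tails. Like acetylation of the same residues it neutralises the lysine's positive charge, and it has been mapped mainly at promoters and enhancers of active genes. Chromosome 15 of the mouse carries Myc, the Hoxc homeobox cluster, the type II keratins and the Ly6 family, separated by long stretches with few genes in which adhesion genes such as the type II cadherins lie.

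The chromosome was chosen because control peaks far from genes, meaning more than 10 kb from any annotated gene, were denser on it than on any other chromosome. That density was 11.99 peaks per Mb, and the next autosome, chromosome 13, had 10.3. It is therefore given as a description. Those far peaks are also counted in the control's densities, dense bins, shares and lambda below. These control values are thus not independent of the choice of chromosome. Fold enrichment and q-values are the authors' own for each peak. The number of reads overlapping a summit and the local background under it (lambda, the number expected there) were solved from the deposited fold and p-value. A gene end here means 1 kb on either side of either annotated end of a protein-coding gene.

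The promoters of 5 genes are shown to give examples of each class of call at gene ends. Each is the 250 bases before the start in RefSeq GRCm38.p6, written 5′ to 3′ on the gene's strand, with CpG dinucleotides in capitals. Tars, threonyl-tRNA synthetase (chr15:11399659-11399908, minus strand), had a gene-end peak in both libraries. Calcoco1, an autophagy receptor and coactivator (chr15:102722179-102722428, minus strand), and Smdt1, a subunit of the mitochondrial calcium uniporter (chr15:82345796-82346045, plus strand), had one in the lactate library alone. Vdr, the vitamin D receptor (chr15:97908297-97908546, minus strand), had one in the control alone, and Slc22a22, a transporter of the SLC22 family (chr15:57477626-57477875, minus strand), in neither.
Tars: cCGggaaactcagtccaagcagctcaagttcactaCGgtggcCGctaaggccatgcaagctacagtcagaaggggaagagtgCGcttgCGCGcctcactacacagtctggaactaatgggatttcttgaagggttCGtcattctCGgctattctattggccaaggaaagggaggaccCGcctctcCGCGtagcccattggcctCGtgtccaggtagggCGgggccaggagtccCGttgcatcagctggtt
Calcoco1: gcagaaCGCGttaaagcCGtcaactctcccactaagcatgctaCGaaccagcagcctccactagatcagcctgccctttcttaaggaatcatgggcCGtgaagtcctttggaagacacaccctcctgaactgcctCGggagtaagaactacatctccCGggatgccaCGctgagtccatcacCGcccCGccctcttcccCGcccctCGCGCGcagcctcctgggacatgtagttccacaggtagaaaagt
Smdt1: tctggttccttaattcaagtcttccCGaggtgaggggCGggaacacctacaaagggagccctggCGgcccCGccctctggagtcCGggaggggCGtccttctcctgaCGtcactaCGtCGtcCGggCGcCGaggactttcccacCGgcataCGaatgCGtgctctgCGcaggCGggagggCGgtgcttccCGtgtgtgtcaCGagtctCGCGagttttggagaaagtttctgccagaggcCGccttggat
Vdr: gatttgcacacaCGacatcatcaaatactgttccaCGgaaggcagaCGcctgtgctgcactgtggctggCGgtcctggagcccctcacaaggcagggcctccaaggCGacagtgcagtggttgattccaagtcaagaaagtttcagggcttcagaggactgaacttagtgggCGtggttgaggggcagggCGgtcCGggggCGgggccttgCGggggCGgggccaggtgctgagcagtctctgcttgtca
Slc22a22: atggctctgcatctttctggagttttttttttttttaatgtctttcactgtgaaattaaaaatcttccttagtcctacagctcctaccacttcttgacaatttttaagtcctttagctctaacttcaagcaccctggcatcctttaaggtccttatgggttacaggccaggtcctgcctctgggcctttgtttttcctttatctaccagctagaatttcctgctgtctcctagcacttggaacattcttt
They hold 14, 14, 23, 11 and 0 CpG in that order.

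CpG content differed between classes of call over the 936 promoter windows of the chromosome in the RefSeq table, each 300 bases long. The windows belong to 761 genes, lncRNA genes among them, and are classed by peaks overlapping the window, not by gene-end calls. Coding and noncoding genes were not separated, so gene type and class of call are mixed in these values. The 164 windows overlapped by a peak in both libraries had a median GC content of 63.7% and a median of 24 CpG. The 103 windows met by a lactate peak alone were alike, with 64.7% GC and 24 CpG. The 23 met by a control peak alone had 62% GC and 22 CpG, where the windows of this class on the other autosomes had medians of 57% and 12. The 646 windows met by neither had 50% GC and 5 CpG. Windows were searched on both strands for 4 motifs, which may overlap each other. GGGCGG, the GC box bound by Sp factors, was in 36.5% of all 936 windows, in 72.0% of those called in both libraries, 74.8% of those called with lactate alone, 47.8% of those called in the control alone and 21.1% of those called in neither. CCGGAA, the core of ETS factor sites, was in 14.96% of all windows and in 36.0%, 23.3%, 4.35% and 8.67% of these classes in the same order. TATAAA was in 13.2% of all windows, against 1.83% of those called in both libraries and 17.8% of those called in neither. CCAAT was in 35.9% of all windows and in 40.9%, 35.9%, 17.4% and 35.3% of the classes. For the control-alone class the CCGGAA and CCAAT shares rest on 1 and 4 of 23 windows. In the 470 control-alone windows of the other autosomes they were 18.3% and 40.6%, so the low shares were not seen there.

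Control peaks were densest in bins without genes, and lactate peaks in the bins with the most genes. The control had 31.2 peaks per Mb (30.2 to 32.4), the highest of the 19 autosomes, where the others ranged from 9.19 to 27.2 with a median of 18.03. This total includes the 11.99 per Mb far from genes that chose the chromosome. Chromosome 8, the next by density, had 8.01 far control peaks per Mb. The lactate library had 21.99 per Mb (21.1 to 22.9), second to chromosome 11 at 22.9, with a median of 16.2 over the others. The chromosome was ordinary in gene content, with 7.69 protein-coding genes per Mb against a median of 8.06, and in the share of its length far from genes, 36.8% against 34.6%. Genes were counted in the 1 Mb bin that holds their midpoint. The lactate count went with the number of genes (Spearman's rho 0.77, Pearson's r 0.74, 101 bins), and for the control count rho was -0.18 and r -0.02. Over 2312 bins of the other autosomes these rhos were 0.69 and 0.19, and chromosome 6 had a lower control value, -0.20. Between the 2 libraries' counts on chromosome 15 rho was 0.10 and r 0.10, where over the pooled bins of the other autosomes rho was 0.45. Taken singly, the autosomes ran from -0.08 on chromosome 6 to 0.71 on chromosome 13. Chromosome 15 was the second lowest, with chromosomes 3 and 10 at 0.21 and 0.23. Bins share a library, and they differ in mappability and base composition, which were not measured.

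**Figure D1:**
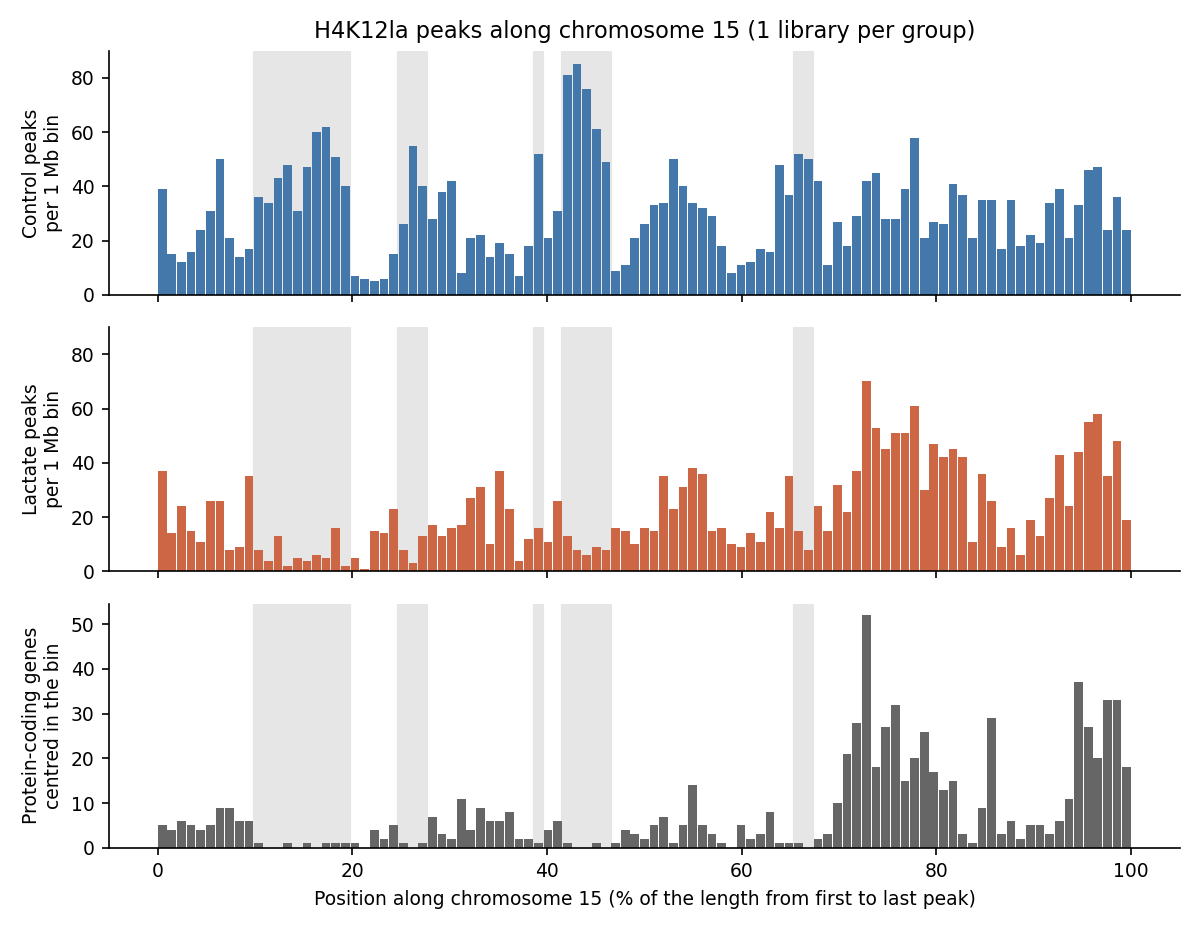
Peaks per 1 Mb bin along chromosome 15 in the control and lactate libraries, with protein-coding genes per bin below, against position as percent of the length from first to last peak. Grey marks the 5 runs of bins where the control had more than 3 times the lactate count, and the control reached 85 peaks in a bin and the lactate library 70, and the highest bins of the 2 libraries lay in different places.

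Bins grouped by their number of genes show where the lists parted. In the 11 bins with no gene midpoint, the control had 45.2 peaks per Mb and the lactate library 6.55, a ratio of 6.90. In the 41 bins with 1 to 4 genes the densities were 30.7 and 14 per Mb, and in the 31 bins with 5 to 14 genes both were 25.0. In the 18 bins with at least 15 genes the order turned, with 34.5 per Mb in the control and 44.3 with lactate. The ratios on the other autosomes ran the same way, from 5.20 in bins without genes through 1.82 and 0.947 to 0.764 in the most gene-rich ones. On chromosome 15 the control densities were above those of the other autosomes in each class, where they were 19.3, 15.9, 18.3 and 22.1 per Mb.

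The densest control bins were mostly in the gene-poor region around Csmd3. The bin from 46000001 to 47000000 (mm10), with no gene midpoint, held 85 control and 8 lactate peaks. Its neighbours on both sides held 81 against 13, at the potassium channel subunit gene Kcnv1, and 76 against 6, and the bin from 48000001 to 49000000, with the synaptic adhesion gene Csmd3, held 61 against 9. The bin from 20000001 to 21000000 held 62 against 5 and 1 gene, the acyl-CoA thioesterase gene Acot10. The densest lactate bins were instead the gene-rich ones. The bin from 76000001 to 77000000 held 52 genes, among them the heat shock factor Hsf1, the respiratory chain gene Cyc1 and the RNA polymerase III repressor Maf1, with 70 lactate and 42 control peaks. In that bin 38 lactate and 16 control peaks lay at gene ends. The bins from 81000001 (with Ep300, a histone acetyltransferase) and from 100000001 (Atf1 and Scn8a) held 61 and 58 lactate peaks against 58 and 47 in the control. The bins from 99000001 and 77000001 held 55 and 53 lactate peaks against 46 and 45.

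By a common cut of more than 36 peaks, the 90th percentile of all autosomal bins in each library, 35 of the 101 control bins were dense (34.7%), the largest share of the 19 autosomes. In the lactate library 19 were (18.8%), second to chromosome 8 at 21.3%. No bin of the chromosome was empty in either library, and the medians were 29 control and 16 lactate peaks.

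Control peaks outnumbered lactate peaks over long runs. With runs defined as neighbouring bins that each held at least 20 peaks in 1 library and more than 3 times the other's, a rule chosen after the values were seen, 5 runs of control excess covered 21 of the 101 bins and no run of lactate excess was found. The share of bins, 20.8%, was the third highest of the autosomes, after chromosomes 6 (28.6%) and 3 (23.6%). The longest run, 10 Mb from 13000001 to 23000000, was the longest on any autosome, the next being 6 Mb on chromosome 1. It held 452 control and 65 lactate peaks and met 7 protein-coding genes, among them the type II cadherins Cdh6, Cdh9, Cdh10, Cdh12 and Cdh18, which mediate adhesion between cells. None of those peaks lay at a gene end. The run from 45000001 to 50000000, with Csmd3 and Kcnv1, held 352 against 44. The others held 121 against 24 (28000001 to 31000000, with Ctnnd2, Dnah5 and Trio), 52 against 16 (42000001 to 43000000, with the angiopoietin gene Angpt1) and 102 against 23 (69000001 to 71000000, with Khdrbs3).

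Median summits within the runs were close to those of the rest of the chromosome in the control and lower with lactate. The 1079 control peaks there, 34.2% of the chromosome's, had a median of 15 reads at the summit (16 outside the runs). Their maximum was 46 (150 outside), and 101 of them (9.36%) overlapped a lactate peak by at least 1 bp. The 172 lactate peaks there had a median of 14 reads (19 outside) and a maximum of 36 (167 outside). Of these lactate peaks, 101 (58.7%) overlapped a control peak. In all, 85 control peaks (7.88%) reached a −log10 q of 5, the authors' measure of a peak's excess over background, and 22 lactate peaks did. At that threshold the 10 Mb run held 30 control and 14 lactate peaks and the run with Angpt1 6 and 4, so neither kept the 3-fold excess that defined it. Outside the runs the counts were nearly equal, 2073 control and 2046 lactate peaks, or 25.9 and 25.6 per Mb, and 44.1% and 43.9% of them were shared. Because each ratio was used to draw the runs, neither the difference in count nor the low shared percentage of control peaks, which that ratio limits, is itself a result.

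**Figure D2:**
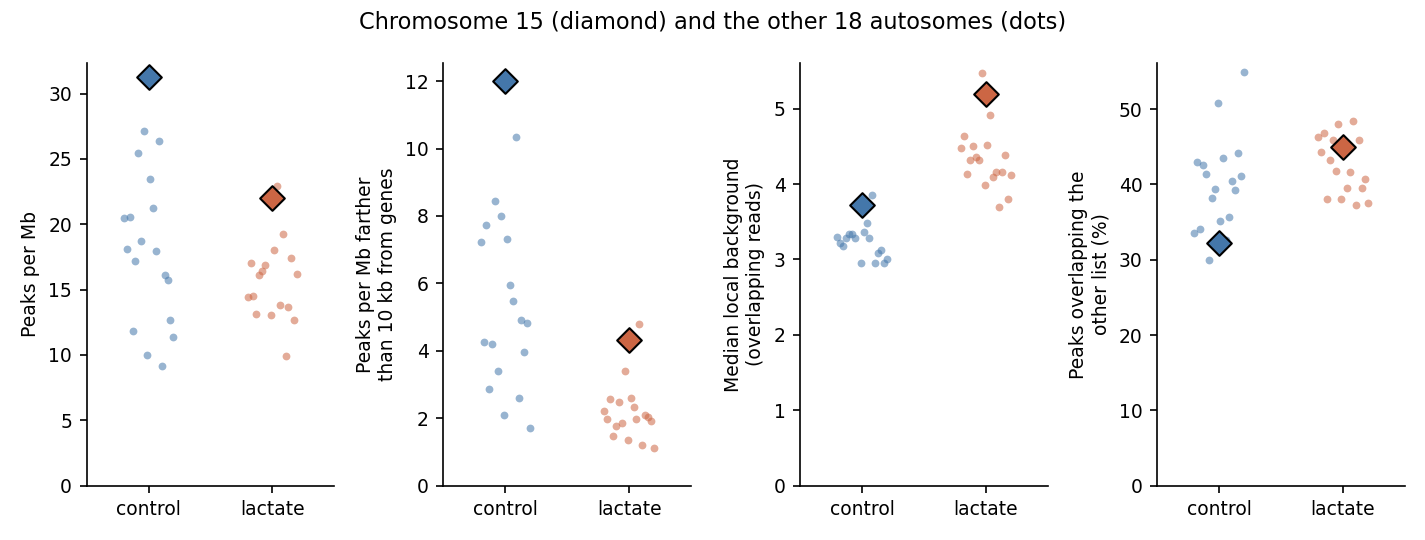
Peaks per Mb, peaks per Mb far from genes, median lambda in reads and percent of peaks overlapping the other list, for chromosome 15 (diamonds) and the 18 other autosomes (dots) in each library. Control peaks per Mb on chromosome 15 (31.2) lay above all 18 others, and its lactate value (21.99) lay below that of chromosome 11.

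Fewer control than lactate peaks lay at gene ends. In the control 354 of 3152 peaks (11.2%, 10.1% to 12.4%) were at a gene end. The 1210 control peaks far from genes (38.4%, 36.7% to 40.1%) are those that chose the chromosome and are given as a description. With lactate 480 of 2218 (21.6%, 19.9% to 23.4%) were at a gene end and 437 (19.7%, 18.1% to 21.4%) far. Over the other autosomes the gene-end shares were 15.6% and 26.8%, and the far shares 29.7% and 13.8%. Peaks within genes, outside those end windows, were 33.7% of control and 38.8% of lactate peaks. Far lactate peaks had a density of 4.33 per Mb (3.94 to 4.76), second to chromosome 13 at 4.800.

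Overlap between the lists depended on where a peak lay. In all, 1016 control peaks (32.2%, 30.6% to 33.9%) met a lactate peak and 999 lactate peaks (45.0%, 43.0% to 47.1%) met a control peak. At gene ends 77.4% of control and 55.8% of lactate peaks were shared, while far from genes the shares were 15.4% and 42.8%. Shared peaks were higher than unshared ones in each library, with median summits of 18 against 15 reads in the control and 22 against 17 with lactate. Median summits over all peaks, 16 and 19 reads, were toward the upper end of the autosomes, where the others had 14 to 16 and 16 to 20. Peaks with a −log10 q of at least 5 made up 9.84% of control and 19.3% of lactate peaks, each the lowest share of the 19 autosomes, where the others had 11.8% to 17.1% and 23.0% to 28.3%. The genome-wide background floor, which scales with depth, was 2.96 reads with NaCl and 3.06 with lactate.

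Lambda, the background MACS2 used under each peak, was high on chromosome 15 in both libraries. Its median was 3.72 reads (3.68 to 3.76) in the control, against 2.96 to 3.86 on the other autosomes, with chromosomes 13 and 8 above it. With lactate it was 5.20 (5.00 to 5.34), against 3.70 to 5.48, with chromosome 8 above it. The share of peaks above the genome-wide floor was 78.7% (77.3% to 80.2%) in the control, the highest of the autosomes, and 83.6% (82.0% to 85.1%) with lactate, where 2 others were at or above it. Control lambda varied less with gene content than lactate lambda. Its medians were 3.42 reads in bins without genes, 3.58 and 3.74 in the middle classes and 4.42 in the most gene-rich bins. With lactate the corresponding medians were 3.06, 3.54, 4.92 and 6.96. The lactate library therefore lay below the control in bins without genes and above it in those with at least 5 genes. At gene ends the medians were 4.16 and 7.28 reads, against 3.34 and 5.40 on the other autosomes.

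High lambda was shared unevenly. Values above 10 reads were found at 14 control peaks (0.444%) and 174 lactate peaks (7.84%), where the other autosomes had 2.16% and 3.29%. Above 5 reads the shares were 21.3% of control and 51.9% of lactate peaks, against 13.7% and 38.5%. In the control the order against the other autosomes thus depended on the cut. The highest lactate values, 19.7, 19.2 and 18.4 reads, were at 3 peaks between 85660804 and 85688975, far from genes and 45.9 to 73.4 kb from Ppara, a fatty acid oxidation regulator. Only the first met a control peak, which had a lambda of 8.18. The highest control values were 14.8 at the peak near Ly6c2 described below, 14.4 inside Brd1, a bromodomain gene, and 14.2 near Smgc. A call needs more reads where lambda is higher, so a missing call is not an absence of signal. The lowest summit in either list was 11 reads.

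Of the 776 protein-coding genes, 335 had a gene-end peak in the control (43.2%, where 32.0% of all 21887 protein-coding genes did) and 416 with lactate (53.6%, against 44.8%). Both libraries called 295 (38.0%, 34.6% to 41.5%, against 28.6%), the lactate library alone 121 (15.6%, 13.1% to 18.3%, against 16.2%) and the control alone 40 (5.15%, 3.71% to 6.95%, against 3.34%). The last share was the highest of the 19 autosomes, and the lactate-alone share was close to the background. Of the 161 genes called in 1 library, the lactate library accounted for 75.2% (67.7% to 81.6%), against 82.9% on the other autosomes. The strand was known for 422 genes, and at their starts alone the counts were 156 in both, 60 with lactate alone and 16 in the control alone. As shares of the 422 these were 37.0%, 14.2% and 3.79% (2.18% to 6.08%). At starts on the other autosomes the shares were 29.0%, 15.8% and 2.71%. The start windows lie at the outermost annotated start, which was also a start in the RefSeq promoter table for 60.5% of stranded genes over the genome. Of the 40 control-alone genes 21 had a promoter window in that table, and for 11 of them a window was met by a control peak alone, for 1 by a lactate peak alone and for 1 by both.

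**Figure D3:**
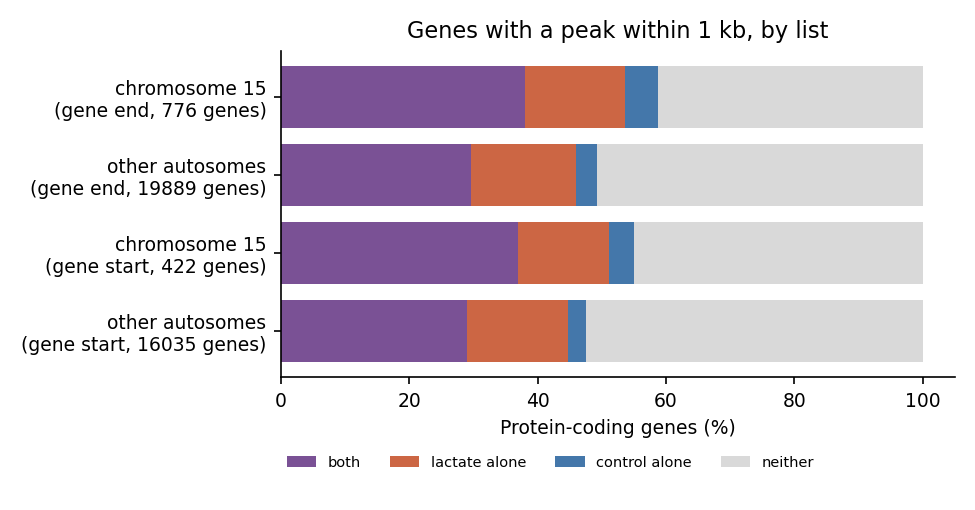
Protein-coding genes of chromosome 15 by gene-end call (both libraries, lactate alone, control alone, neither) as percent of genes, beside the other autosomes, at gene ends (upper bars) and at starts of genes with known strand. The share called in the control alone was 5.15% on chromosome 15, above the 3.34% of all protein-coding genes.

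Genes called in both libraries had higher lactate summits. At these 295 genes the median summit was 18 reads in the control and 30 with lactate, against 17 and 26 on the other autosomes. The lactate summit was higher at 279, lower at 13 and equal at 3, and the 2 counting intervals lay apart at 13, each with lactate higher. At 255 of the genes the best peaks of the lists overlapped. Fold enrichment, which is relative to each library's own lambda, was higher with lactate at 136 of 295. Genes called with lactate alone had a median of 24 reads and those called in the control alone 14.5.

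**Figure D4:**
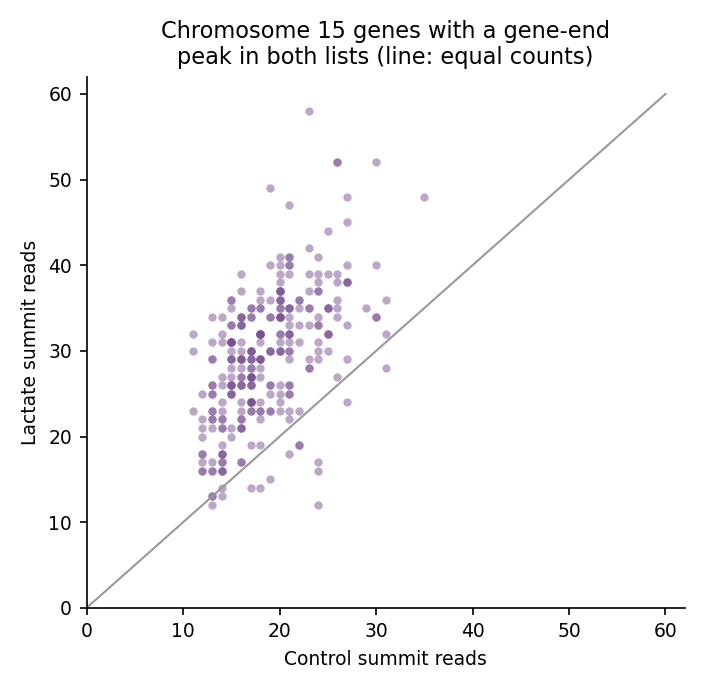
Summit reads in the lactate library against the control for the 295 genes called in both, with the line of equality. Most genes, 279, lay above the line and 13 below.

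Genes called in both libraries were named as the top 5 by fold in each, a choice that by itself favours the library used, so the differences between their folds are descriptions. Tars had 22 control and 36 lactate reads at its best peaks, with folds of 5.81 and 6.49. Fbxo4, a ubiquitin ligase subunit, had 26 and 39 reads with folds of 6.82 and 5.28, Cplane1, a ciliary gene, 31 and 36 with 5.95 and 4.18, and Ptk2, focal adhesion kinase, 35 and 48 with 5.79 and 4.66. Cthrc1, a secreted collagen-repeat protein gene, had 26 and 27 reads with folds of 6.08 and 4.93. For these 4 the control fold was the higher. In Stk3, a Hippo pathway kinase, the fold was 3.54 in the control and 6.17 with lactate on 13 and 29 reads, and in Rrm2b, a ribonucleotide reductase subunit, 4.04 and 5.65 on 15 and 33. Twf1, an actin regulator, had folds of 4.29 and 5.76, and Irak4, an innate immune kinase whose peak is also at Pus7l, 4.80 and 5.63.

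The lactate-alone genes with the highest fold lay at 7 places, some shared by a pair of neighbouring genes. The peak at Maf1 and Sharpin (76351066 to 76351416) had 43 reads, a fold of 4.28 and a −log10 q of 11.6. That at Pheta2 and Smdt1 (82345905 to 82346307) had 40 reads and 10.6. Amacr, which racemises branched fatty acids, had 18 reads and the highest fold, 4.68, on a −log10 q of 5.70. Cenpm, a centromere protein gene, had 22 reads, Tbc1d31 32 and Calcoco1 17, and the pair Ccdc134 and Mei1 shared a peak of 22 reads. The control-alone genes named by the same rule had lower summits, 12 to 15 reads. The peak shared by Cby1 and Fam227a (79658998 to 79659185) had 15 reads and a fold of 4.04. Vdr had 15 reads, Mroh2b, Nfe2 and Gsdmc 14 each, Slc2a13, Pdzrn4 and CN725425 13 each, and Krt79 12. Of the 40 control-alone genes 0 reached a −log10 q of 5, against 24 of the 121 lactate-alone genes.

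Gene groups on the chromosome differed in how often they were called. Values are counts of genes with a gene-end peak, to be read against the 38.0%, 15.6% and 5.15% of all genes on the chromosome called in both, with lactate alone and in the control alone. Of 28 chromatin and transcription regulators, 18 were called in both libraries, 4 with lactate alone and 0 in the control alone. The 4 were Brd1 (29 reads), Hdac10 (28), a polyamine deacetylase, Ago2 (27) and Smarcd1 (28), a SWI/SNF subunit. Ep300, the acetyltransferase, was called in both. Of 20 translation and RNA-binding factors, 13 were called in both and 5 with lactate alone, among them Mrpl13 (33), Polr2f (30) and the poly(A)-binding protein Pabpc1 (25). Of 20 energy metabolism genes 16 were called in both, among them Cox6c (25 and 30 reads) and Atp5g2 (30 and 52), 0 with lactate alone and 1 in the control alone, the sugar transporter Slc2a13.

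Around Myc, 7 of 13 genes were called in both libraries, with Zhx1 at 20 and 38 reads. Atad2, a bromodomain ATPase (25 reads), and Myc itself (21 reads) were called with lactate alone. Of the 9 Hoxc genes, Hoxc10 was called in both with 12 and 20 reads, Hoxc6 (36) and Hoxc9 (29) with lactate alone and the other 6 in neither. Of 28 neuronal genes, 7 were called in both, 3 with lactate alone and 5 in the control alone, among the last Prph (peripherin, 17 reads), Shank3 (13), Ctnnd2 (13) and Syngr1 (12). The Prph call was at its outermost annotated start, and its promoter window in RefSeq (99054924 to 99055223), inside that span, was met by a lactate peak alone. Inside those 28 genes lay 183 control and 94 lactate peaks. Most of that difference lay in Csmd3 and Ctnnd2, both in runs drawn for control excess, with counts given below. The whole chromosome had 3152 control and 2218 lactate peaks.

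Of all 776 genes on the chromosome 41.2% were called in neither library, and the tissue-specific families are set beside that share. Of 26 keratin genes, all type II except the type I gene Krt18, 23 were called in neither library. Krt78 and Krt8 shared a peak of 16 and 17 reads between their neighbouring outer annotated ends, while the promoter windows of both in RefSeq were met by neither library. Krt79 had a control peak. Of 23 Ly6 genes, which encode GPI-anchored surface proteins, 16 were called in neither, 4 in the control alone, 2 in both and 1 with lactate alone. Some of these genes, such as Ly6a, Ly6c1 and Ly6i, are close copies, and calls at them are uncertain because reads may be split among copies. Of 8 class I cytokine receptors 2 were called, Ghr (17 and 24 reads) and Il2rb (13 and 12), both in both libraries. Among 16 genes of other cell types, 4 were called in both (Rac2, Pdgfb, Aqp2 and Cela1) and 1 with lactate alone (Gpr84, 23 reads). Called in the control alone were 2 (Bin2, 15, and Nckap1l, 13). The other 9 were called in neither, among them Sox10, Col2a1, Tg and Krt5. Among 14 neuroblastoma and noradrenergic neuron markers over the genome, 4 were called in both (Isl1, Stmn2, Snap25, Tuba1a), 3 with lactate alone (Phox2a, Elavl4, Tubb3), 2 in the control alone (Hand2, and Prph with the lactate peak at its inner start noted above) and 5 in neither, among them Th, Dbh and Gata3. Of all protein-coding genes 28.6% were called in both, 16.2% with lactate alone and 3.34% in the control alone, so the share of these markers called in both was at the background. A peak of this mark is not a measure of expression.

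Of 539 annotated lncRNA genes on the chromosome, 70 carried, in both libraries, a peak at most 1 kb from an end (12.99%, where 10.2% of all 12727 lncRNA genes did), 46 with lactate alone (8.53%, against 8.13%) and 22 in the control alone (4.08%, against 2.91%). Many of these peaks also lay at the end of a protein-coding gene. Without them the counts were 38 (7.05%, against 4.90% of all lncRNA genes), 27 (5.01%, against 5.51%) and 19 (3.53%, against 2.75%).

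Long genes held more control than lactate peaks in total, as did the whole chromosome, with 3152 and 2218. The 5 cadherins had 0 gene-end peaks in either library but 104 control and 20 lactate peaks inside, 69 and 13 of them in Cdh12, 22 and 6 in Cdh18. Starts within the outer ends were met, since RefSeq promoter windows inside Cdh18 (23036213 to 23036512) and Cdh12 (21111202 to 21111501) overlapped a peak in both libraries and with lactate alone. Over the 45 genes of at least 200 kb, the control had 497 peaks and the lactate library 304, with more control peaks in 27 genes, more lactate peaks in 15 and equal numbers in 3. Without Cdh12 and Csmd3, which had the most control peaks, the totals were 360 and 284. In proportion, that control excess is smaller than the chromosome's. Cdh12, Csmd3, Cdh18 and Ctnnd2 all meet runs drawn for control excess. Csmd3 had 68 and 7, Ctnnd2, a delta-catenin gene, 31 and 10, and Cpq, a carboxypeptidase gene, 23 and 8. The reverse was seen in Rims2, a presynaptic scaffold gene, with 4 control and 13 lactate peaks, and in Pdzd2 with 7 and 15.

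**Figure D5:**
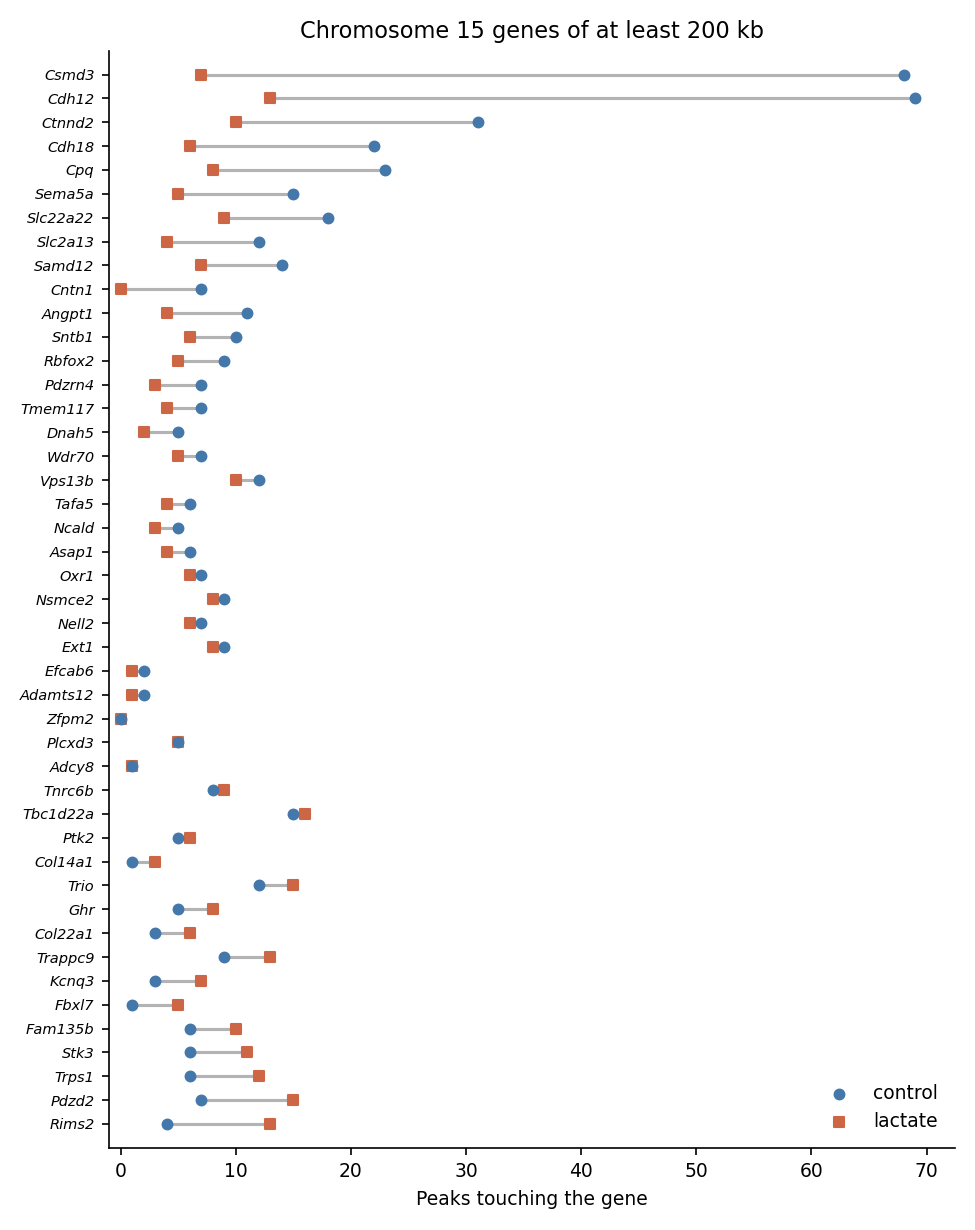
Peaks touching each of the 45 genes of at least 200 kb (1 row a gene), with a circle for the control and a square for the lactate library joined by a line. Csmd3 (68 and 7) and Cdh12 (69 and 13) had the longest lines.

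The highest peaks of the chromosome were called in both libraries at near-equal heights, and several stood away from gene ends. A peak of 1558 bp far from genes, at 75085522 to 75087079 and 21.1 kb from Ly6c2, had 150 control reads (127 to 176) and 167 lactate reads (143 to 194). Its folds were 9.54 and 9.27. Inside Nadk2, a mitochondrial NAD kinase, a peak at 9085053 to 9085670 had 86 and 89 reads, and inside Drosha, the nuclease that starts miRNA processing, a peak at 12872980 to 12873407 had 50 and 50. Near Smgc, peaks at 91908432 to 91909062 and 91909433 to 91909909 had 62 and 60 control and 62 and 57 lactate reads. Others differed more. The highest control fold, 10.3, was at 38974537 to 38975398, 23.3 kb from Baalc, where the control had 52 reads (38.8 to 68.2) and the lactate library 30 (20.2 to 42.8). Inside Cdh12, a peak at 21035435 to 21035938 had 39 control reads (27.7 to 53.3) and 21 lactate reads (13.0 to 32.1). In both places the control value was the higher and the counting intervals of the libraries overlapped.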

How the data were processed

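H4K12la CUT&Tag libraries from Neuro2a cells given NaCl or 25 mM lactate, 1 of each, were read from both ends over 150 bases, per the labels. The build was mm10 and the tools were MACS2, BWA and deepTools, per the submitters' processing notes. Versions, settings and any control library or spike-in were not given in the sources used here. Deposited by the authors was 1 peak list per library, with for each peak a fold enrichment (a ratio to local background), −log10 p and −log10 q, a score and summit position, called separately in each library. The lists hold no read totals.

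Members were all peaks on chromosome 15. The 6 mitochondrial lines of each list were left out. Summit reads and lambda were solved from fold = (pileup + 1)/(lambda + 1) and the Poisson p. Whole-number pileups were found for 46591 of 46592 peaks of the control and 39768 of 39768 of the lactate list, at a tolerance of 0.001 in the −log10 p, and the solution was tested on simulated data. Lambda moved in steps of 0.02, the step of 1 read extended to 200 bp over 10 kb.

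Genes, promoters and strand (422 of 776 genes) came from RefSeq GRCm38.p6. Overlap was at least 1 bp. Intervals are exact (Poisson or Clopper-Pearson) at 95%, except those of medians, which come from order statistics, and cover counting error alone. Named genes are, by fold, the top 10 called with lactate alone, the top 10 called in the control alone, the top 5 in either library of those called in both, and members of 11 gene lists, with symbols beginning Gm or ending in Rik passed over. Named peaks are the highest by summit far from genes, by fold and by lambda. The chromosome and the lists were chosen with earlier results of these data known. Alternatives were a −log10 q of at least 5, lists of equal length, other windows, distances, bins and overlap rules. Software was matplotlib 3.10.9, scipy 1.17.1, pandas 2.3.3 and numpy 2.4.6 under Python 3.11.15.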

Additional observations from a re-analysis of the deposited data

How the results depend on the processing

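Of 53 recomputed values for 13 quantities, 26 stayed within the limits set and 27 moved. At a −log10 q of at least 5, genes called in both libraries numbered 62 and in the control alone 9. Control density relative to the median other autosome was 1.304 (1.73 as deposited) and lactate 1.08 (1.36). Far density was 1.79 for the control (2.47) and 1.26 for lactate (2.16), and dense bins were 15.8% of control (34.7%) and 9.90% of lactate bins (18.8%). Shared peaks were 49.0% of control (32.2%) and 35.4% of lactate peaks (45.0%), so the order of the libraries turned, and the lactate lambda ratio was 1.29 (1.20). At that threshold chromosome 15 had rank 4 in place of 1 for control density, rank 2 for far control peaks behind chromosome 13, and ranks 8 and 5 for lactate. With lists of equal length its ranks were 1 with the control and 2 with lactate, with 26 control-alone genes, 35.8% and 41.7% of peaks shared and a control lambda ratio of 1.15 (1.13). At gene starts with known strand, 156, 60 and 16 genes were called in both, with lactate alone and in the control alone. Those counts are of 422 genes in place of 776, and they are among the values counted as moved. Far peaks alone gave lambda ratios of 1.18 and 1.08, and shares above the floor 1.25 and 1.08. Far meaning 50 kb gave a control ratio of 2.74. Sharing was 29.0% and 40.4% when at least 50% of either peak had to be covered, and 27.3% and 39.0% with summits within 200 bp. The cause of these shifts was not tested. No paired analysis was possible because each group has 1 library, and no replicate could be left out.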

Other observations

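Of 35 miRNA hairpins, 5 lay within 1 kb of a peak in both libraries, 2 in the control alone and 2 with lactate alone. No share over all hairpins of the genome is available here, so these counts are descriptions only. Mir688 lay at the Atp5g2 peak with 30 control and 52 lactate reads, and Mir7648 at the Alg10b peak with 21 and 35. Near Mir6393 and Mir3964 only the control was called, with 21 and 15 reads, and near Mir6960 and Mir7117 only the lactate library, with 21 and 14 reads.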
